A study of Homo sapiens with 2 samples.

Results

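The insulin-like growth factor axis was examined in a map of GATA2 binding in LNCaP cells, an established androgen-responsive human prostate cancer line. It was represented by 6 genes in 5 windows of hg19, each reaching 0.1 Mb beyond the gene body on both sides: IGF2, IGF1, IGF1R, IGFBP3, and 1 window shared by the adjacent IGFBP2 and IGFBP5. A peak was counted where its midpoint lay in a window. By this rule 25 of the 36797 GATA2 peaks in the deposited list were members, 7 at IGF1, 11 at IGF1R, 3 at IGFBP2 and IGFBP5, and 2 each at IGF2 and IGFBP3. The windows were chosen by gene and not by any measured value, although earlier results of these data were known at the time.

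The study comprised 1 group of 2 replicate chromatin immunoprecipitations with an antibody against GATA2, a transcription factor that binds DNA through zinc fingers. All cells carried the same treatment, in which medium with 10% serum was replaced, 3 days before the assay, by one with 5% serum stripped with charcoal to remove steroid hormones. No second condition, input or antibody control was among the samples used here. The authors deposited 1 peak list with a score per peak and no value per replicate, so no value below has a replicate error and no comparison between conditions was possible. The score is the authors' own, starts at 80.01 and has no stated unit. It is used here only to rank peaks within the list. Read depth is unknown, and a stretch without a peak means only that no peak passed the authors' threshold there.

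The axis signals from ligand to receptor through binding proteins. IGF1 and IGF2 are secreted peptide hormones that bind the receptor tyrosine kinase encoded by IGF1R, which activates growth and survival signalling through the PI3K-AKT and MAPK pathways. The IGFBP proteins bind the ligands outside the cell and control how much of them reaches the receptor. In the prostate, IGF1 is known mainly as a stromal and circulating factor acting on epithelial cells that carry the receptor. GATA factors bind DNA at sites built on the letters GATA.

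Peaks near the 5′ end of a gene were found for 3 of the 6 genes. The share over all genes was not computed, so this count cannot be called high or low. The gene-body intervals are known here only to 10 kb, so a peak this close may lie inside or outside the gene. It cannot be assigned to a promoter, first exon or first intron. The 10 kb limit used for such peaks was set after the positions had been seen. At IGF1 a peak midpoint lay 4.23 kb inside the 5′ edge of the interval, at IGFBP3 the distance was 6.9 kb, and at IGF1R it was 8.38 kb. For these 3 genes the promoter stretches of RefSeq, 250 bases before to 50 bases after an annotated start, are shown to set the start regions side by side. They come from build GRCh38.p14, and their coordinates cannot be joined to the hg19 peak positions. IGF1 has 2 listed starts, with stretches at chr12:102481698-102481997 and chr12:102478501-102478800 on the minus strand. The IGF1R stretch is chr15:98648289-98648588 on the plus strand, and the IGFBP3 stretch is chr7:45921223-45921522 on the minus strand. Capitals mark the letters GATA on either strand (TATC where the opposite strand holds GATA).
IGF1 promoter 1: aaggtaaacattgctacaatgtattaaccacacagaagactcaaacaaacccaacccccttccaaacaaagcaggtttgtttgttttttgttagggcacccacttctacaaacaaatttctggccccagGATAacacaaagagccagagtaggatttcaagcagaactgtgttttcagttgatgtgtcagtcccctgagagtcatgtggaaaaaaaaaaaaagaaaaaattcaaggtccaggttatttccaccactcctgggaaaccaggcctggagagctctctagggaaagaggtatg
IGF1 promoter 2: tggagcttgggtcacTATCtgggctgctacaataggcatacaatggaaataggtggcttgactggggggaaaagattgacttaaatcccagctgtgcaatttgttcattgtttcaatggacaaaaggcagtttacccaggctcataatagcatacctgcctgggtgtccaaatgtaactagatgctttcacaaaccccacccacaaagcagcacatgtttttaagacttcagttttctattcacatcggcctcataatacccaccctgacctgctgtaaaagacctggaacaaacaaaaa
IGF1R promoter: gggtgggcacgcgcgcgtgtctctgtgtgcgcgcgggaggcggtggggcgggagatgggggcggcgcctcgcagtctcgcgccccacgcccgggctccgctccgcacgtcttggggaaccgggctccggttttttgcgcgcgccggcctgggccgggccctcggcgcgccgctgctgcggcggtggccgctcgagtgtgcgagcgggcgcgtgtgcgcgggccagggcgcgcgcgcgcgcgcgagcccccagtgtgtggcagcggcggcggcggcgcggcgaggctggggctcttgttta
IGFBP3 promoter: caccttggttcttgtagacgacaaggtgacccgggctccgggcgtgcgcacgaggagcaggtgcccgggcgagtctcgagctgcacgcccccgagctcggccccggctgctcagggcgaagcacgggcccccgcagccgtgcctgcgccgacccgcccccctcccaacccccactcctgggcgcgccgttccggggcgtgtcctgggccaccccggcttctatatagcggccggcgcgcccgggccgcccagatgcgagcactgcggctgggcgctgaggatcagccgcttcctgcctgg

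The start regions differed in base composition. The 2 IGF1 stretches had 42.3% and 43.7% G and C, whereas IGF1R had 79.7% and IGFBP3 had 74.7%, against a median of 58.7% over the 35116 promoter stretches of the table. Of the 6 members, 5 had at least 1 stretch in the table, 8 stretches in all. The letters AGATAA or TGATAA, extended GATA sites searched on both strands, were in 0 of these 8 and in 16.3% of all promoter stretches. The 4 letters GATA, which both longer strings contain, were in 3 of the 8, the 2 of IGF1 and 1 of the 3 of IGFBP2, and in 49.7% of all promoter stretches. A match describes the letters and is not a binding site. The peaks themselves were not read for sequence.

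IGF2, the fetal-type ligand that is imprinted in most tissues, had no GATA2 peak in its gene body. The window, chromosome 11 from 2.05 to 2.28 Mb, held 2 peaks, at 2097946 to 2098296 and at 2098456 to 2099118. They scored 350.0 and 288.3, above the list median of 212.2 and below its upper quartile of 396.8. Only 159 bp separated them, and both lay 51 to 52 kb beyond the 3′ edge of the gene, on the side on which RefSeq's gene order places H19, the imprinted non-coding RNA gene. Whether they lie before or beyond H19 was not determined here. The second peak was 663 bp wide, the widest of the 25, and wider than 99.7% of the peaks closest to it in score (500 on each side in rank). The first was 351 bp wide, wider than 51.9% of the peaks closest to it in score. This share was computed for all 25 peaks and ran from 1.9% to 99.7%. Only some of the shares are given here, so the extreme ones were picked from 25.

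A peak-free stretch of 322 kb (2099119 to 2421490) followed this pair and held the whole IGF2 gene body, with the next peak, scoring 194.1, 142 kb beyond the window. Stretches between neighbouring peaks that were at least this long made up 3.49% of the 36773 in the list, although 22.5% of the usable genome lay in one. The surroundings of IGF2 had fewer peaks per Mb than the chromosome as a whole. The 1 Mb on each side of the window held 11 peaks together, 5.50 per Mb, against 13.2 per Mb for chromosome 11. The window's own 2 peaks amounted to 8.7 per Mb (exact Poisson 95% interval 1.05 to 31.4), and 67.5% of genome tiles of the same 0.23 Mb length held at least 2.

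IGF1, which encodes the ligand that mediates much of growth hormone action, had 7 peaks in its window, the densest of the 5 with the full list but not among the better-scoring 50% of peaks. On chromosome 12 from 102.69 to 102.98 Mb the density was 24.1 per Mb (interval 9.7 to 49.7), and 15.1% of 0.29 Mb tiles held at least 7. Chromosome 12 as a whole had 14.0 per Mb, and the 1 Mb on each side of the window had 13.0 per Mb. The peaks lay on both sides of the gene as well as in it, 2 upstream, 3 in the gene-body interval and 2 downstream. Peaks were thus listed in and around IGF1. The 2 peaks of IGF2 lay on 1 side, but only 159 bp apart, so this difference says little.

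The best-scoring IGF1 peak, at 102897722 to 102898185, lay 18.0 kb upstream of the 5′ edge. It was 464 bp wide and scored 679.9, higher than 89.7% of the list. A companion 3.31 kb nearer to the gene, at 102894477 to 102894808, was 332 bp wide and scored 193.6, near the list median. Inside the gene-body interval the best-scoring peak, at 102848037 to 102848422, lay 31.8 kb from the 5′ edge, was 386 bp wide and scored 626.0, higher than 87.9% of the list. The other 5 of the 7 IGF1 peaks, that companion among them, scored from 107.3 to 206.1, all below the list median. They included the one nearest the 5′ edge, at 102875633 to 102875904, which was 272 bp wide and scored 195.6. Downstream of the gene, 2 peaks 3.75 kb apart scored 206.1 and 173.4, with midpoints 9.69 and 13.4 kb beyond the 3′ edge. The first of these, at 102780205 to 102780417, was 213 bp wide, and the second, at 102776399 to 102776729, was 331 bp wide. The lowest-scoring, at 102801611 to 102801788, was 178 bp wide and scored 107.3.

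**Figure D1:**
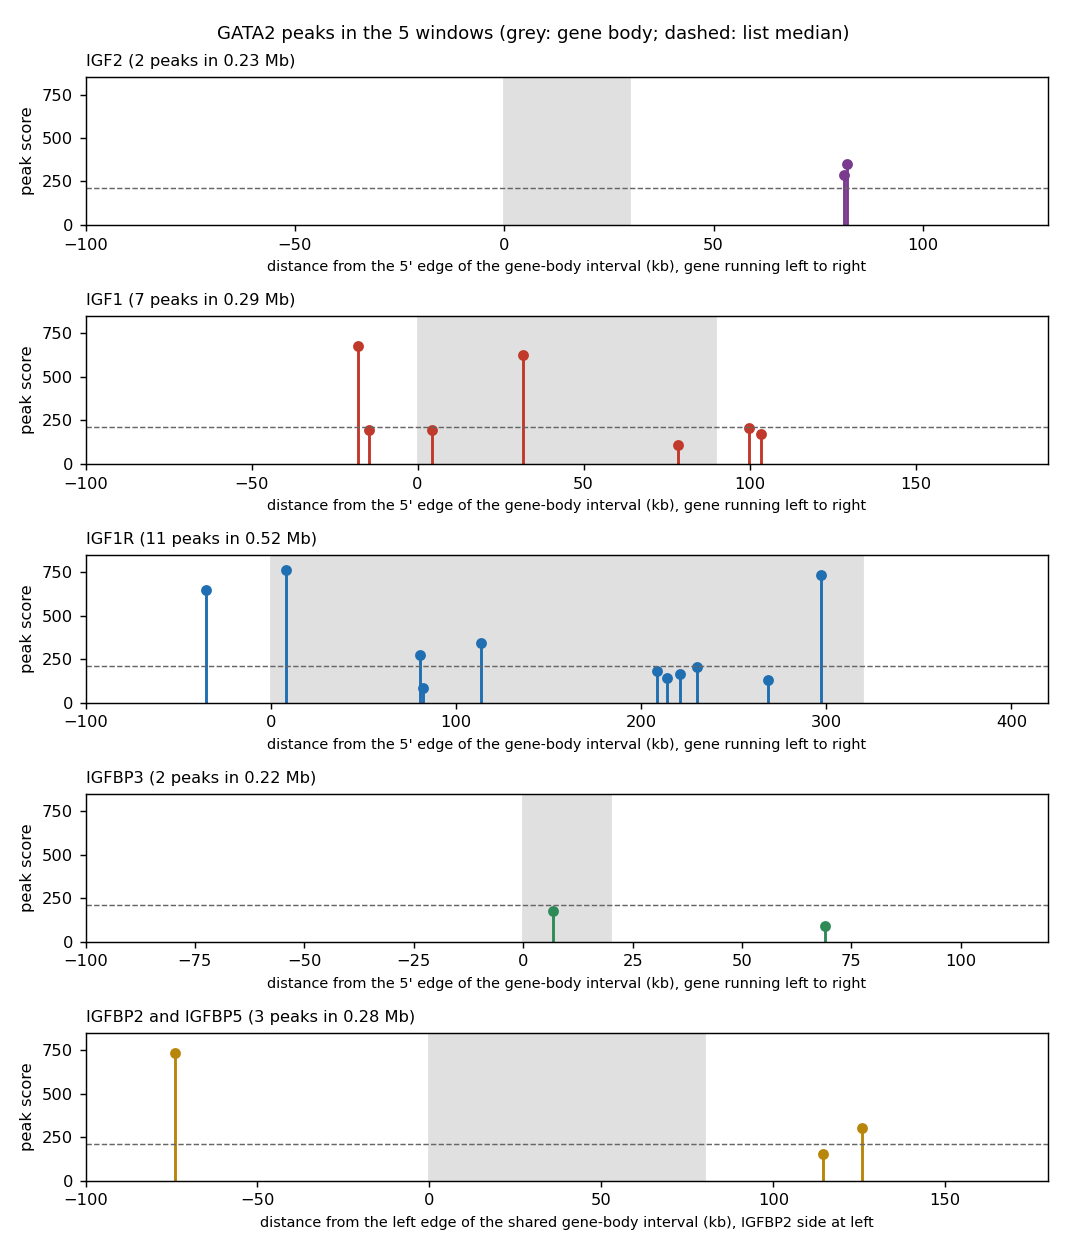
GATA2 peaks in the 5 windows, with the authors' peak score on the vertical axis and distance in kb from the 5′ edge of the gene-body interval on the horizontal axis (from the left edge of the shared interval for IGFBP2 and IGFBP5). Each stem is 1 peak, grey marks the gene-body interval and the dashed line the list median of 212.2. Peaks lie in the IGF1R, IGF1 and IGFBP3 intervals, and the grey intervals of IGF2 and of IGFBP2 and IGFBP5 hold none.

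IGF1R, the receptor gene and the longest of the 6, held 11 of the 25 peaks, 10 of them inside its 0.32 Mb gene-body interval. The window, chromosome 15 from 99.09 to 99.61 Mb, had 21.2 peaks per Mb (interval 10.6 to 37.9), against 14.1 per Mb for chromosome 15 and 15.0 per Mb in the 1 Mb on each side. At least 11 peaks were found in 15.9% of 0.52 Mb tiles. The gene body alone had 31.2 per Mb, and 5.03% of 0.32 Mb tiles held at least 10 peaks. This tile length was set after the counts had been seen. No peak lay in the 0.1 Mb beyond the 3′ edge, where the next one, outside the window, scored 659.2.

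High-scoring peaks stood towards both ends of IGF1R. At its 5′ end the peak at 99198119 to 99198652, 534 bp wide, scored 763.4, the highest of the 25 and higher than 92.0% of the list. Upstream of the gene, 34.8 kb from the 5′ edge, the peak at 99155060 to 99155347 scored 651.3. At 288 bp it was narrow for that score, wider than 1.9% of the peaks closest to it in score. Near the 3′ end, 297 kb from the 5′ edge, the peak at 99487114 to 99487473 was 360 bp wide and scored 734.4.

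The interior of IGF1R held 8 peaks with scores from 83.8 to 344.7. The first 2 of these, 80.6 and 82.3 kb from the 5′ edge and 1.72 kb apart, scored 275.8 and 83.8. The peak scoring 275.8, at 99270386 to 99270732, was 347 bp wide. The peak scoring 83.8, at 99272126 to 99272425, was the lowest of the 25, yet at 300 bp it was wider than 97.4% of the peaks closest to it in score. After the peak at 99303579 to 99303862, which was 284 bp wide and scored 344.7, the next peak midpoint was 94.9 kb away. It opened a run of 4 peaks at successive distances of 5.11, 7.03 and 9.63 kb. The run began with a peak of 260 bp at 99398539 to 99398798, scoring 185.8, and one of 155 bp at 99403701 to 99403855, scoring 142.7. It ended with a peak of 303 bp at 99410659 to 99410961, scoring 164.6, and one of 298 bp at 99420291 to 99420588, scoring 206.9. Each of the 4 was below the list median. The remaining interior peak, at 99458674 to 99458888, was 215 bp wide and scored 130.3.

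The binding-protein genes had fewer peaks than IGF1 and IGF1R. Of their 5 peaks, 4 lay outside the gene-body intervals, where 0.4 Mb of the 0.5 Mb of their windows lies. The remaining peak, at IGFBP3, lay nearer to an edge than the 10 kb to which the intervals are known. It may therefore lie outside the gene. IGFBP3 encodes the main carrier of IGF1 in blood. Its window, chromosome 7 from 45.85 to 46.07 Mb, held 2 peaks. The density was 9.09 per Mb (interval 1.1 to 32.8), and 66.1% of 0.22 Mb tiles held at least 2. The peak by the 5′ edge, at 45962975 to 45963234, was 260 bp wide and scored 179.1, below the list median. The other, at 45900876 to 45901026, lay 49.0 kb beyond the 3′ edge, on the side of the neighbouring gene IGFBP1, which encodes another binding protein. It was 151 bp wide, the narrowest of the 25, and scored 88.2, higher than 5.52% of the list. Neither peak reached the list median. With a reach of 0.2 Mb the window held 5 peaks, the highest scoring 523.3. The 1 Mb on each side of the window had 15.5 peaks per Mb, against 12.9 per Mb for chromosome 7.

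IGFBP2 and IGFBP5 are adjacent and run towards each other, and their shared gene-body interval, chromosome 2 from 217.49 to 217.57 Mb, held no peak. A peak-free stretch of 188 kb, from 217416219 to 217604285, spanned both genes. Stretches at least as long made up 10.1% of those in the list and held 42.7% of the usable genome. The window of 0.28 Mb had 3 peaks, or 10.7 per Mb (interval 2.21 to 31.3), against 11.5 per Mb for chromosome 2, and 59.2% of tiles of that length held at least 3. On the IGFBP2 side, 74.0 kb from the shared interval, the peak at 217415840 to 217416218 was 379 bp wide and scored 732.7, higher than 91.2% of the list. On the IGFBP5 side the peaks at 217604286 to 217604518 and 217615630 to 217615903 lay 34.4 and 45.8 kb away. They were 233 and 274 bp wide and scored 152.0 and 302.2. The high-scoring peak was thus the one farthest from the genes, and the nearer ones scored lower.

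**Figure D2:**
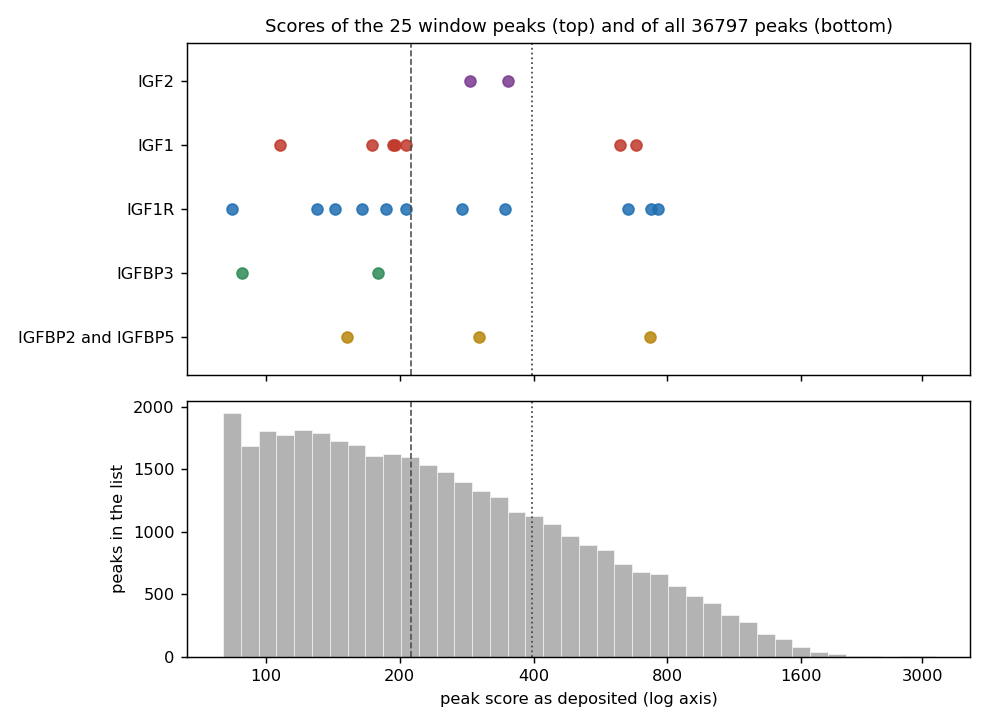
Peak scores by window (top, 1 point per peak) above the scores of the whole list (bottom, bars are numbers of peaks), on a shared log axis. The dashed line is the list median of 212.2 and the dotted line its upper quartile of 396.8. Of the 25 window peaks, 6 lie to the right of the dotted line, all between 626.0 and 763.4, and IGF2 and IGFBP3 have none there.

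Over the 5 windows, the medians of score and width were close to those of the list. The median score was 206.1 in the windows and 212.2 in the list, and the median width was 298 bp in the windows and 293 bp in the list. Scores at or above the list's upper quartile were found for 6 of the 25 window peaks, 24.0% (Wilson 95% interval 11.5% to 43.4%), against 25.0% of the list by definition. Those 6 lay at IGF1R (3), IGF1 (2) and the shared window of IGFBP2 and IGFBP5 (1), and scored between 626.0 and 763.4. The next score below was 350.0, and 17.1% of the list scored between 350.0 and 626.0. In the best-scoring 10% of the list, from 686.9 upwards, there were 3 window peaks, 2 of them at IGF1R. No window peak was among the extremes of the list, in which 2942 peaks scored above 763.4.

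The 5 windows together covered 1.54 Mb and had 16.2 peaks per Mb (interval 10.5 to 24.0), against 12.8 per Mb over the 2870 Mb of usable genome, a ratio of 1.27. The interval includes the density of the list. Without IGF1R, which held 44.0% of the peaks on 33.8% of the length, the other windows had 13.7 per Mb (interval 7.5 to 23.0). In order of density the windows ran from IGF1 through IGF1R, IGFBP2 and IGFBP5, and IGFBP3 to IGF2, and the intervals of all 5 overlapped. This order depended on the authors' threshold. Among the better-scoring 50% of the list it was IGF1R (9.62 per Mb), IGF2 (8.7), IGFBP2 and IGFBP5 (7.14), IGF1 (6.9) and IGFBP3, which had 0 peaks. Gene-body intervals held 14 peaks on 0.54 Mb, 25.9 per Mb, and the flanks held 11 on 1.00 Mb, 11.0 per Mb. Of those 14, 10 were at IGF1R and 3 at IGF1. The split is approximate, because the interval edges are known only to 10 kb. Within 10 kb inside a 5′ edge lay 3 of the 14, and a flank peak at IGF1 lay 9.69 kb beyond the 3′ edge. These intervals cover counting error only, and neighbouring peaks are not independent.

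**Figure D3:**
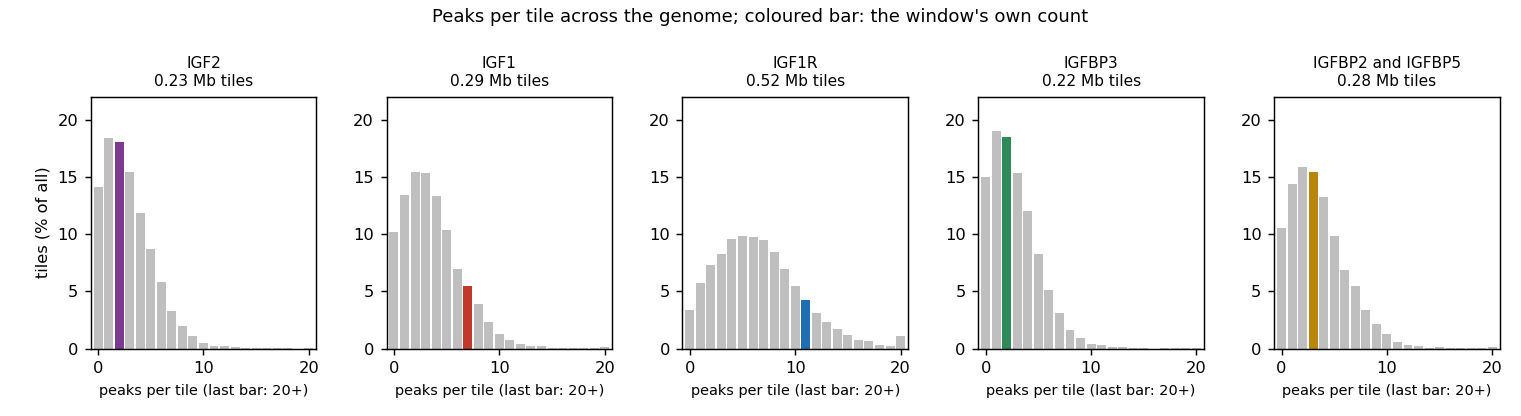
Number of peaks per tile (horizontal axis, 20 or more in the last bar) against the share of tiles in percent (vertical axis), for tiles of each window's own length laid over the usable genome. The coloured bar is the count of the window itself. IGF1 (7 peaks) and IGF1R (11 peaks) stand in the upper tail, with 15.1% and 15.9% of tiles at least as full, and the other windows are near the middle.

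The median distance to the nearest peak midpoint was 11.4 kb for the 25 window peaks (95% interval from order statistics 3.75 to 28.5 kb) and 19.1 kb for the list, a value inside that interval. The interval treats the 25 distances as independent, but peaks nearest to each other share a distance, so it is too narrow. For peaks in gene bodies only the median was 20.1 kb, and with windows reaching 0.2 Mb beyond the bodies it was 19.0 kb. The shorter distance was thus not kept under either of these settings. With a reach of 0.05 Mb the median was 11.4 kb again, and after peaks less than 500 bp apart were merged it was 15.1 kb. A neighbour within 10 kb was found for 12 of the 25, 48.0%, against 33.2% of the list. These 12 were the pair at IGF2, 2 pairs at IGF1, and a pair and the run of 4 at IGF1R, so they form 5 groups and not 12 separate observations. At the limits of the windows, the nearest peaks inside were 26.0 to 181 kb from a window end, and the nearest outside were 42.4 to 301 kb beyond it. The peaks just outside scored from 88.5, on the right of IGFBP3, to 659.2, on the right of IGF1R. The nearest peak-free stretch over 2.5 Mb was 12.0 Mb from a window, on chromosome 7, and chromosome 15 had none between its peaks.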

How the data were processed

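GATA2 chromatin immunoprecipitation and sequencing was done in 2 replicate LNCaP samples, per the labels. The submitters' processing notes name Bowtie and hg19, and the deposited peak names carry MACS. Versions, control library, duplicate handling and pooling of replicates: not given in the sources used here. The authors deposited 1 list with a score per peak, whose scale is not stated. Starts were converted to 1-based positions. Gene-body intervals are the windows less 0.1 Mb at each end, and strands are RefSeq's (for IGF2, that of INS-IGF2). The usable genome runs from the first to the last peak of each chromosome without peak-free stretches over 2.5 Mb, and was divided into adjoining tiles as long as each window. No test was run, since 1 group with no replicate values allows none. Counting was checked on simulated peaks. As the rule for naming asked, every window peak is given by position, width and score. The members and lists were chosen with earlier results of these data known. Of the other pathway genes listed, IGFBP1 and INS neighbour members in RefSeq's gene order (GRCh38.p14), and IGF2R, IGFBP4, IGFBP6, IGFALS, INSR, IRS1, IRS2 and PAPPA were not analysed here. Python 3.11.15, numpy 2.4.6, pandas 2.3.3, scipy 1.17.1 and matplotlib 3.10.9 were used.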

Additional observations from a re-analysis of the deposited data

How the results depend on the processing

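Depth is unknown and no value has a replicate error, so the counts rest on the authors' threshold. With the better-scoring 50% of the list, by construction, 11 window peaks were left (7.14 per Mb, median score 626.0, 54.5% above the upper quartile of the full list, nearest peak 43.2 kb), and with the best-scoring 10% 3 (1.95 per Mb, 734.4, 100%, 289 kb). Gene-body intervals alone held 14 peaks at 25.9 per Mb. Without the IGF1R window, chosen after seeing the data, 14 peaks were left and the highest score was 732.7. The other 34 of 48 alternative values over all windows stayed within 1.5 times the count, within the 95% interval, or the same for the highest score. For single windows 63 of 86 did, tile shares being judged by a Wilson 95% interval that treats all tiles as independent and is narrow. Some of these values could not change, so neither count measures robustness. Leaving out IGF1R could not alter the other windows, and cutting lower-scoring peaks could not alter a highest score. A window left without peaks had no highest score and was not counted for it. IGF2 had 1 peak after peaks less than 500 bp apart were merged, and 0 with a reach of 0.05 Mb. With a reach of 0.2 Mb the density over all windows was 13.0 per Mb. With tiles of 1 Mb, 4.6% were at least as dense as the IGF1 window and 9.41% as the IGF1R window. Such tiles are longer than the windows and average over more sequence, so these shares are not a like comparison. With tiles shorter than the windows the shares were 15.7% for IGF1 and 17.7% for IGF1R. The search for GATA letters in the peaks was not run, as no hg19 genome was used, and no replicate could be left out. No paired analysis was possible because all samples form 1 group and no column of the list names a replicate.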
